A study of Drosophila melanogaster with 36 samples.

Results

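Homeobox genes outside the Hox complexes encode transcription factors that share the homeodomain with the Hox proteins but are not themselves in the Antennapedia or bithorax complex. Here 51 of them, listed by name, were described out of 13945 protein-coding genes of Drosophila melanogaster. A gene was counted as bound in a line when a deposited region shared 1 bp or more with the gene body or the 5 kb on either side of it. All 51 were found in the annotation. Their homeodomain classes were NK-like and related (20 genes), paired-like (8), Pax with a homeodomain (7), LIM (5), POU (3), sine oculis (3), Engrailed (2), zinc finger (2) and Cut (1).

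The homeodomain is a DNA-binding fold whose recognition helix reads short AT-rich sequences in the major groove, and many family members read closely related sequences. Hox proteins can bind DNA together with the TALE homeodomain proteins Extradenticle (Exd) and Homothorax (Hth), and Hth is needed for Exd to enter the nucleus. These cofactors can raise Hox specificity in vitro. The study that made these data reported that they changed the selectivity of Hox binding little in its cells. Many homeobox genes outside the complexes act below the Hox genes in development: they specify a compartment of a segment, a muscle, an eye or a neuron type. Several of them cross-regulate one another. Glial cells missing (Gcm) is no homeodomain protein: its own DNA-binding domain reads a GC-rich octamer, and it directs glial and blood cell fates.

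The data are ChIP-Seq regions from 12 stable lines made from Kc167, an embryonic Drosophila cell line with haemocyte-like features. The study asked how the cofactors Hth and Gcm alter where Hox proteins bind. Each plasmid carried an eGFP fusion under the copper-inducible metallothionein promoter with puromycin selection, and cells were sorted to a common GFP range before ChIP with an anti-GFP antibody. Each line had 2 ChIP libraries and 1 input library, 24 and 12 in all, and was deposited as 1 merged list of regions at q 1e-2 and another at q 1e-10.

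The lines expressed Dfd (2 mM CuSO4 for 24 h), Dfd with Hth (2.66 mM, 22 h), Dfd with Gcm (3.2 mM, 24 h), Dfd with Hth and Gcm (3.7 mM, 22 h), Ubx (1 mM, 18 h) and Ubx with Hth (1 mM, 18 h). The others expressed Ubx with Gcm (2.5 mM, 24 h), Ubx with Hth and Gcm (2.5 mM, 24 h), Abd-B (0.5 mM, 24 h), Abd-B with Hth (2.5 mM, 24 h), Hth (1 mM, 18 h) and Gcm (2.5 mM, 24 h). Lines with a Hox protein carried eGFP fused to it, so the lists of those lines show the Hox protein and not its cofactor. Copper dose and induction time were the same in Ubx, Ubx+Hth and Hth, and the same in Ubx+Gcm, Ubx+Hth+Gcm and Gcm. In the other comparisons of lines with and without a cofactor, the dose or the time differed together with the construct, and these cannot be told apart. Below, the 4 Dfd lines and the 4 Ubx lines are given in the order without cofactor, with Hth, with Gcm and with both, and the 2 Abd-B lines without and with Hth.

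The lists held 4885 to 13741 regions at q 1e-2 and 1832 to 10375 at q 1e-10. The q 1e-10 regions overlapped a q 1e-2 region of the same line in every case but 1 in Ubx+Gcm. The lists hold no score, summit, read count or value per replicate. The number of reads at a region is thus unknown, and no difference between lines could be tested against replicate error. The study reports read totals per library for all lines but Dfd+Hth+Gcm and Ubx+Hth+Gcm. These totals differed between libraries, and their part in the counts below was not tested. Intervals in brackets are exact binomial ones at 95%, and they allow for counting error alone. The lists hold no expression, so the labelled cell type could not be checked against its markers, and a bound gene is not thereby an expressed or regulated one.

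How many of the 51 genes had a region varied widely between lines. At q 1e-2 the number ran from 21 genes with Ubx+Hth to 43 with Abd-B and with Gcm, with a median over lines of 36.5 genes, or 71.6%. In the Dfd lines 38, 36, 33 and 33 of the 51 genes were bound, where 72.9%, 70.6%, 69.8% and 64.8% of all protein-coding genes were. In the Ubx lines 30, 21, 40 and 35 were bound, against 52.3%, 40.7%, 71.7% and 64.6% of all protein-coding genes. The Abd-B lines bound 43 and 42 (80.8% and 82.0% of all), Hth 37 (69.3%) and Gcm 43 (73.5%). The share of homeobox genes lay between 5.13 percentage points below and 10.8 above that of all protein-coding genes, with a median of 2.44 above, so a gene's place on the list alone did not set it far apart.

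**Figure D1:**
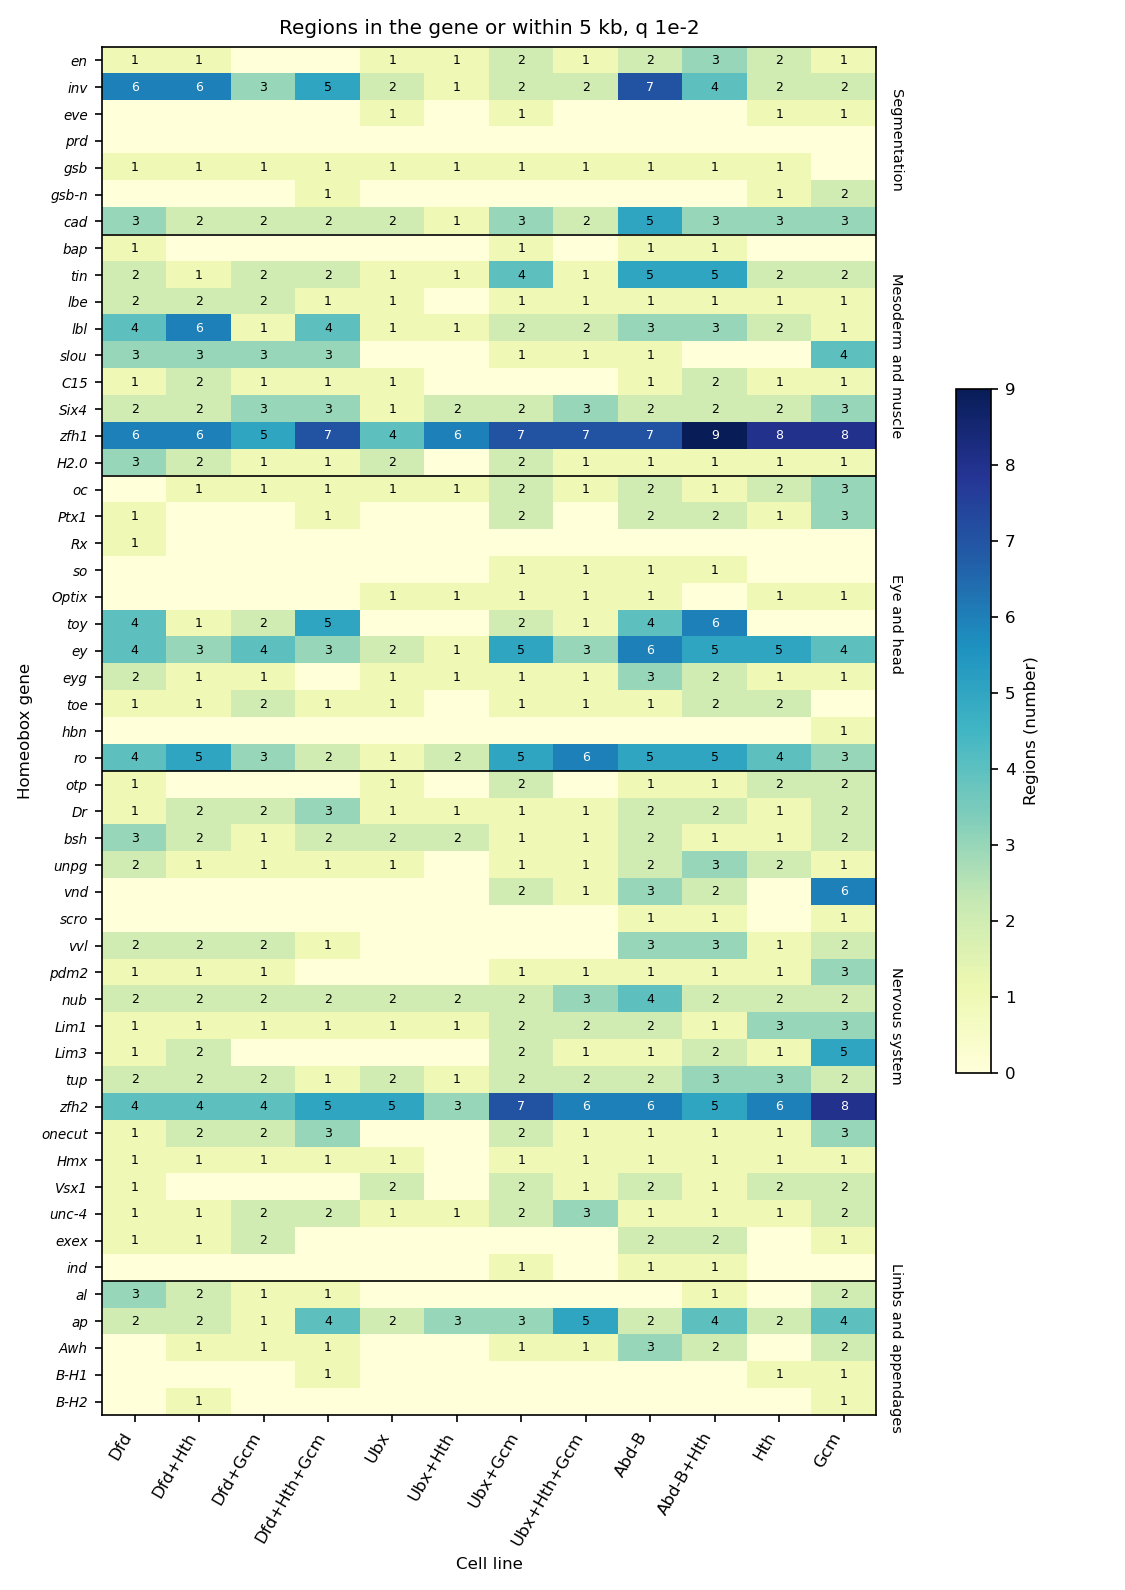
Number of regions at q 1e-2 in each of the 51 homeobox genes (rows, grouped by developmental role) or within 5 kb, for the 12 lines (columns). Darker cells hold more regions; zfh1, zfh2 and ey are filled in all 12 lines and prd is empty in all of them.

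Homeobox genes are long, with a median of 10168 bp (1126 to 49266 bp) against 2166 bp over all protein-coding genes, and longer genes collect more regions. Each was therefore set beside the 200 protein-coding genes nearest to it in length. Among these genes of similar length 84.1%, 82.7%, 81.3% and 77.9% were bound in the Dfd lines, and 66.3%, 54.9%, 83.5% and 78.1% in the Ubx lines. The share was 90.4% and 91.3% in the Abd-B lines, 81.5% with Hth and 84.3% with Gcm. The homeobox genes lay below this share in 11 of 12 lines, by a median over all lines of 9.18 percentage points and by up to 16.6 points, while in the Gcm line they lay 0.03 points above it. The mean number of regions per gene was also lower, 0.667 to 2.06 over the lines against 1.35 to 3.87 for genes of similar length.

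This shortfall depended on how regions were given to genes. When a region counted for a gene only where its centre was nearer to that gene than to any other protein-coding gene, the homeobox genes were below genes of similar length in 2 of 12 lines, Dfd+Gcm and Ubx+Hth, and the median difference turned to 2.39 points above. This assignment was added after the first result was seen. With the gene body alone the shortfall was larger. The homeobox genes were then below in 11 of 12 lines, by a median over all lines of 22.5 points, and 12.3 points above in the Gcm line. The 5 kb windows of the homeobox genes held a median of 1 other protein-coding gene and those of genes of similar length a median of 3, and the part of these neighbours in the counts was not tested further. In 171 (79.5%) of the pairs of a binding site and a homeobox gene, the homeobox gene was the nearest gene.

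**Figure D2:**
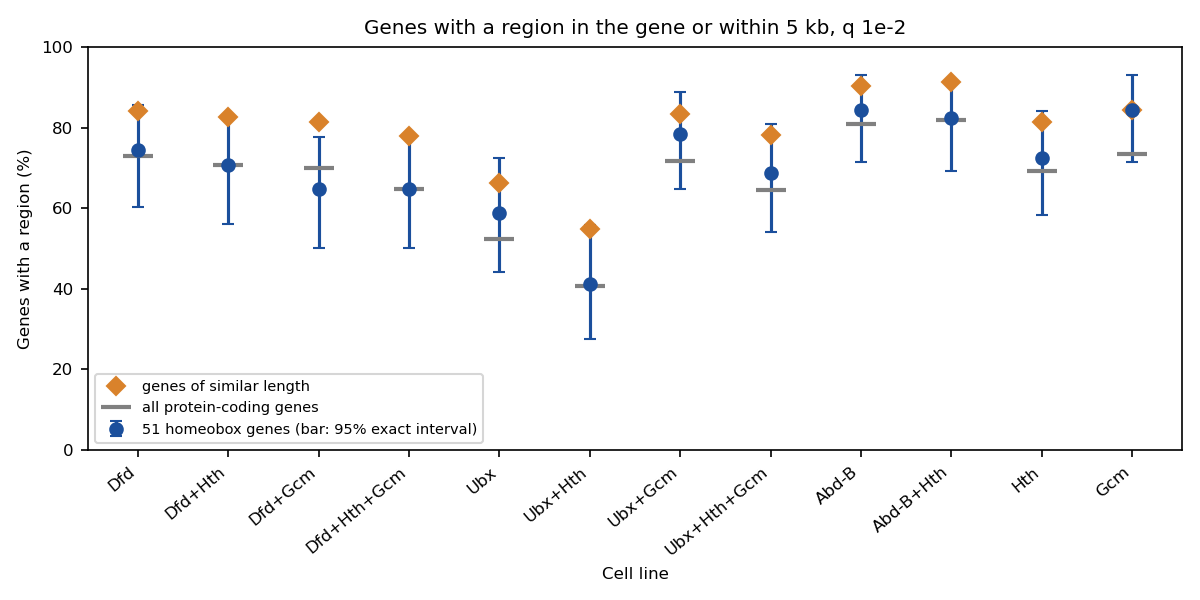
Percent of the 51 homeobox genes with a region in the gene or within 5 kb at q 1e-2 for each line, with exact 95% intervals, beside the percent among protein-coding genes of similar length and among all protein-coding genes. The homeobox genes lie under genes of similar length in 11 lines and level with them in the Gcm line.

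At the stricter q 1e-10 fewer of the 51 genes were bound in every line. In the Dfd lines 25, 24, 20 and 17 were still bound, where 47.7%, 49.5%, 41.4% and 40.6% of all protein-coding genes were. The Ubx lines fell to 14, 8, 25 and 20 genes, against 20.0%, 19.9%, 44.7% and 36.4% of all genes. The Abd-B lines had 38 and 34 (72.6% and 69.9%), Hth 30 (54.9%) and Gcm 31 (53.0%). Genes of similar length were bound at 30.9% to 84.3% at this threshold, and the homeobox genes were below them in 12 of 12 lines, by 3.64 to 21.1 points. A further 34 homeobox genes outside the Hox complexes and not on the list ranged in the same way, from 15 of 34 bound at q 1e-2 in Ubx+Hth to 30 of 34 in Abd-B+Hth.

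Regions over a transcript start set the Gcm line apart from the Hox lines. With Gcm, 24 of 51 homeobox genes had a region over an annotated start (47.1%, interval 32.9 to 61.5%), where 25.4% of genes of similar length and 15.7% of all protein-coding genes had one. Hth alone also covered the starts of 24 of 51, but there genes of similar length stood at 49.5% and all protein-coding genes at 34.4%. In the Hox lines the homeobox genes were low: 7, 8, 6 and 6 of 51 in the Dfd lines, against 32.1%, 28.3%, 29.0% and 21.7% of all protein-coding genes. In the Ubx lines the counts were 9, 4, 17 and 11 (20.0%, 10.7%, 36.4% and 25.0% of all genes), and in the Abd-B lines 16 and 11 (48.5% and 45.6%).

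Genes of similar length had a region over a start in 33.9% to 44.1% of cases in the Dfd lines, 19.7% to 51.0% in the Ubx lines and 57.0% to 60.6% in the Abd-B lines, above the homeobox genes in all 10 lines with a Hox protein. The comparison of starts was chosen after the lists were seen. In the Gcm line the homeobox genes were above genes of similar length at q 1e-10 too (13 of 51, 25.5% against 12.4%), within 500 bp of a start (29 of 51, 56.9% against 39.9%) and at the outermost start alone (21 of 51, 41.2% against 17.2%). The homeobox genes had a median of 1 annotated start each and genes of similar length a median of 2. Over all lines 32 of the 51 had a merged site over a start, zfh1 and zfh2 had a region over a start in all 12 lines, lbe in 11, and Dr and nub in 10.

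**Figure D3:**
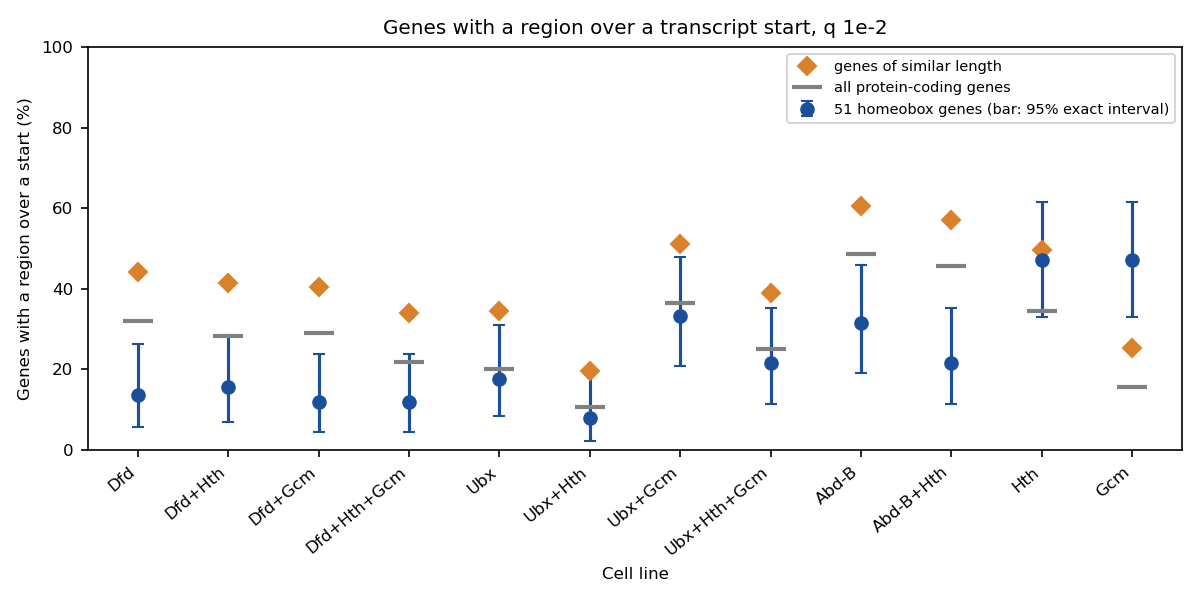
Percent of the 51 homeobox genes with a region over an annotated transcript start at q 1e-2 for each line, with exact 95% intervals, beside genes of similar length and all protein-coding genes. The Gcm line is the one line where the homeobox genes (47.1%) exceed genes of similar length (25.4%).

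The Gcm line also placed regions inside coding exons of the homeobox genes. There 26 of 104 regions (25.0%, interval 17.0 to 34.4%) were centred in a coding exon of any protein-coding gene. This was close to the 25.2% of the whole Gcm list and below the 29.9% at genes of similar length. In the other 11 lines 0 to 3 regions at homeobox genes were centred in one. Gcm regions centred in the homeobox gene's own coding exon lay at 16 of the 51 genes (31.4%). That was near the 28.3% of genes of similar length, where 16.8% of all protein-coding genes had one. The 16 were inv, otp, al, ap, slou, vnd, vvl, Ptx1, Lim3, tup, ey, zfh1, zfh2, onecut, hbn and Vsx1. They belong to the Engrailed, paired-like, LIM, NK-like, POU, Pax, zinc finger and Cut classes. The vnd gene, which specifies ventral neuroblasts of the nerve cord, had 6 regions with Gcm, and 2 of its sites bound by Gcm alone were centred in its coding exons. The 4 Dfd lines, Ubx, Ubx+Hth and Hth had no region at vnd.

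Regions of the 12 lines that shared 1 bp or more were merged into sites, giving 23270 sites in all. At the homeobox genes 15 sites (7.01%, interval 3.98 to 11.3%) were bound in all 12 lines, as were 6.89% of all sites. A further 35 were bound in 7 to 11 lines, 88 in 2 to 6 lines and 76 (35.5%, against 35.3% of all sites) in 1 line alone, and 37 of the last were in the Gcm line. These 4 groups hold every site at the homeobox genes. A merged site can chain regions that do not all meet, but 14 of the 15 sites of all 12 lines had bases that each of the 12 lines covered, and 1331 of the 1603 such sites in all did. In the number of lines per site the homeobox genes were thus close to all sites. Each gene had a median of 4 sites (0 to 12), and the genes of similar length had a median of 5.

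**Figure D4:**
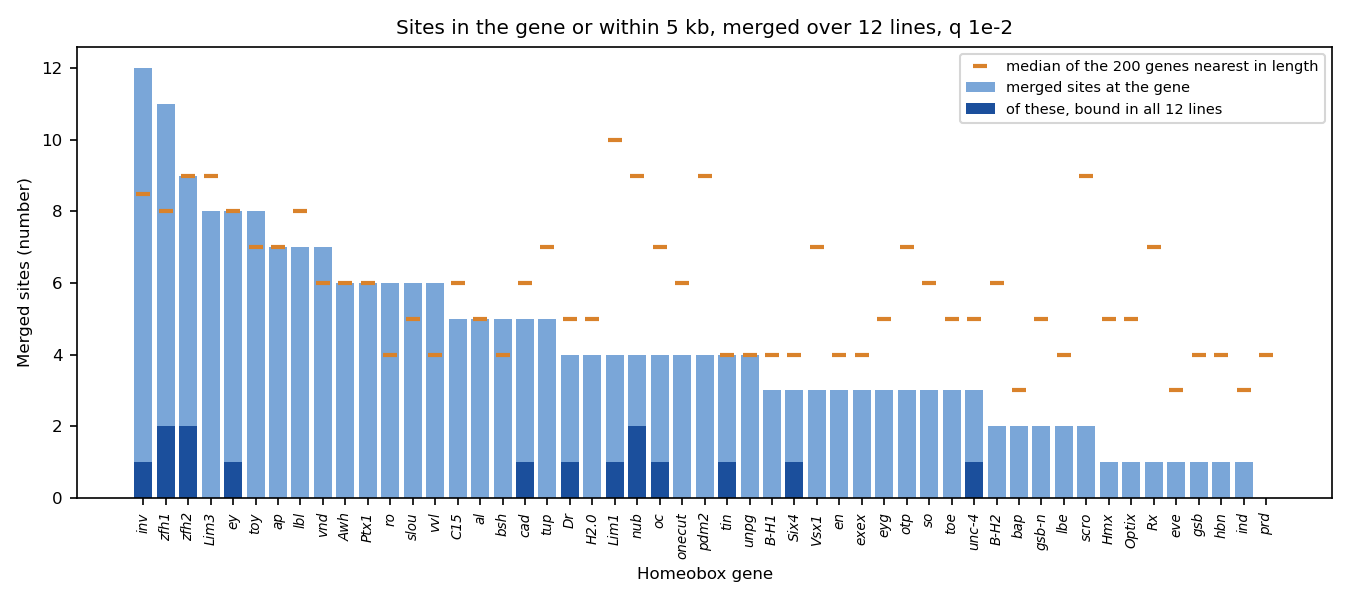
Merged sites in or within 5 kb of each of the 51 homeobox genes, beside the median of the 200 protein-coding genes nearest in length. Most genes (35) lie under their neighbours' median, and inv (12 sites), zfh1 (11) and zfh2 (9) have the highest counts.

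The number of lines that bound a gene also varied. Bound in all 12 lines at q 1e-2 were 16 genes: inv, ap, tin, lbl, cad, Dr, bsh, nub, Six4, Lim1, tup, ey, zfh1, zfh2, unc-4 and ro. That was 31.4% of the 51, against 45.4% of genes of similar length and 31.3% of all protein-coding genes. At q 1e-10 the 6 genes ap, cad, nub, zfh1, zfh2 and ro were bound in all 12 lines (11.8%, against 17.2% and 9.23%). The gene prd had no region in any line, Rx was bound in Dfd alone and hbn in Gcm alone.

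The zinc-finger homeodomain genes were the class bound in every line at both thresholds. The gene zfh1 (FBgn0004606, dm6 chr3R:30765926-30789202, plus strand), a repressor with roles in mesoderm, heart, gonad and blood cells, had 6, 6, 5 and 7 regions in the Dfd lines and 4, 6, 7 and 7 in the Ubx lines. It had 7 and 9 in the Abd-B lines, 8 with Hth and 8 with Gcm. These merged into 11 sites, where genes of similar length had a median of 8. A site of 2237 bp over the start was bound in all 12 lines, with 906 bp covered in each of them. An intronic site of 2610 bp also had a region of every line, but no base of it was covered in all 12: Dfd bound it 6119 to 6703 bp from the gene start and Ubx 7474 to 7803 bp from it.

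Around these stretches zfh1 held smaller sites that separated the lines. An intronic site of 547 bp was bound in Dfd+Hth, Dfd+Hth+Gcm, Ubx+Hth, Ubx+Hth+Gcm and Hth, and in no line with Dfd, Ubx or Abd-B without Hth. The octamers TGATTGAT, TGATTAAT and TGATTTAT, which combine a TALE half-site with a Hox half-site, were searched on both strands, and this site held 3 matches. Shown first are 192 bases of the Dfd+Hth region with 2 of the matches, and then 48 bases of another zfh1 intronic region, bound in Ubx+Hth and not in Ubx. The capitals mark the octamers, which stand on the minus strand in the first sequence (TGATTTAT and TGATTAAT read in reverse) and on the plus strand in the second. The sequences are from the RefSeq copy of the Release 6 genome, plus strand.
zfh1 intron, chr3R:30768009-30768200: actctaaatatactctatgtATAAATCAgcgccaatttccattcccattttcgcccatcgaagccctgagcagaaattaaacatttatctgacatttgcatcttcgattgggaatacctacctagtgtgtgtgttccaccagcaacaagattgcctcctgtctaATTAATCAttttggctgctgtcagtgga
zfh1 intron, chr3R:30779006-30779053: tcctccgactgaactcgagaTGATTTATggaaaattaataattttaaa
The first stretch was covered whole in Dfd+Hth, Dfd+Hth+Gcm and Hth and in part in Ubx+Hth and Ubx+Hth+Gcm. The second was covered in Ubx+Hth, Ubx+Hth+Gcm and both Abd-B lines and in no other line.

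The gene zfh2 (FBgn0004607, chr4:501810-540874, plus strand), which acts in wing hinge and neuronal development, had 4, 4, 4 and 5 regions in the Dfd lines, 5, 3, 7 and 6 in the Ubx lines, 6 and 5 in the Abd-B lines, 6 with Hth and 8 with Gcm. It had 9 sites, equal to the median of genes of similar length. A site of 1186 bp over its start and one of 2465 bp in an intron were bound in all 12 lines, with 644 and 958 bp covered in each of them. A further intronic site of 572 bp, centred 15599 bp from the start, was bound in Ubx+Gcm, Ubx+Hth+Gcm and Gcm and in no other line.

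The Gcm site was searched as the words ATGCGGGC, ATGCGGGT, ATACGGGC and ATACGGGT on both strands. Of the Gcm line's regions at homeobox genes, 20 of 104 held one in their central 200 bp (19.2%, interval 12.2 to 28.1%), against 23.6% over the whole Gcm list. The first sequence below comes from the Gcm region in the zfh2 intronic site of 2465 bp that was bound in all 12 lines. It shows 1 of the 2 matches in that region. The second comes from a site downstream of unc-4, which specifies motor neurons and interneurons. Capitals mark the Gcm site, on the minus strand in zfh2 (ATGCGGGT read in reverse) and on the plus strand in unc-4.
zfh2 intron, chr4:506899-506946: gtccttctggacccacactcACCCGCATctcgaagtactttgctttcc
unc-4 downstream, chrX:17779580-17779627: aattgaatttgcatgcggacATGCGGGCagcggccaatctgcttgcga
The zfh2 stretch, at the edge of its site, was covered in Ubx+Gcm, Ubx+Hth+Gcm and Gcm and in no other line. The unc-4 site (732 bp, centred 11128 bp from the start) was bound in the 5 lines with Gcm, namely Dfd+Gcm, Dfd+Hth+Gcm, Ubx+Gcm, Ubx+Hth+Gcm and Gcm, and in none of the 7 others. It was the 1 site of this pattern at the homeobox genes, and 71 of the 23270 sites in all had it. The pattern was picked out after the sites were seen.

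The genes of the eye and head, among them the Pax6 genes ey and toy that start eye development, were bound unevenly: 5 to 9 of the 11 had a region, depending on the line. That filled 63.6% of gene and line pairs, where all protein-coding genes were bound at 40.7% to 82.0% over the lines. The gene ey, on chromosome 4 like zfh2, had 4, 3, 4 and 3 regions in the Dfd lines, 2, 1, 5 and 3 in the Ubx lines, 6 and 5 in the Abd-B lines, 5 with Hth and 4 with Gcm. Its 8 sites included one of 2055 bp with a region of all 12 lines, which reached over a start, and one of 848 bp in an intron that Hth bound alone. Its paralogue toy, also with 8 sites, gave a different series of counts: 4, 1, 2 and 5 in the Dfd lines, 0, 0, 2 and 1 in the Ubx lines, 4 and 6 in the Abd-B lines, and 0 with Hth and with Gcm. The Hth and Gcm lines, without a Hox protein, thus had no region at toy, where Dfd+Hth+Gcm had 5.

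At toy, 4 of the 5 Dfd+Hth+Gcm regions had no counterpart in Dfd+Hth. A region 723 bp wide downstream of the gene was bound in Abd-B+Hth and not in Abd-B, and held 1 octamer. Dfd bound another stretch of that site, without the octamer. The 48 bases around the octamer, in capitals on the plus strand, are shown because it is the Abd-B case that matches the zfh1 sites.
toy downstream, chr4:1008617-1008664: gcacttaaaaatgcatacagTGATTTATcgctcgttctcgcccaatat
The other genes of this group included ro, a photoreceptor fate gene, with 4, 5, 3 and 2 regions in the Dfd lines, 1, 2, 5 and 6 in the Ubx lines, 5 in both Abd-B lines, 4 with Hth and 3 with Gcm.

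The 6 ro sites exceeded the median of 4 at genes of similar length, in a gene of 4401 bp, but 5 of the 6 were nearer to another gene. The head gap gene oc had 0, 1, 1 and 1 regions in the Dfd lines, 1, 1, 2 and 1 in the Ubx lines, 2 and 1 in the Abd-B lines, 2 with Hth and 3 with Gcm. The Pax genes eyg and toe, which promote eye growth, were bound in 11 and 10 lines. The sine oculis class genes of eye development, so and Optix, had no region in any Dfd line; so had 1 each in Ubx+Gcm, Ubx+Hth+Gcm, Abd-B and Abd-B+Hth, and Optix was bound in 7 lines. The rest of the group was sparsely bound, with Ptx1 in 7 lines, Rx in 1 and hbn in 1.

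The segmentation genes were bound in 3 to 6 of 7 cases per line, and in 61.9% of gene and line pairs. The median line had 70.2% of all protein-coding genes bound. Both Engrailed genes mark posterior compartments and lie 14310 bp apart on chromosome arm 2R without sharing a site. The gene inv (FBgn0001269, chr2R:11474465-11509695) had 12 sites, the most of the 51 genes, where genes of similar length had a median of 8.5. Its regions numbered 6, 6, 3 and 5 in the Dfd lines, 2, 1, 2 and 2 in the Ubx lines, 7 and 4 in the Abd-B lines, 2 with Hth and 2 with Gcm. The neighbouring en had 1, 1, 0 and 0 in the Dfd lines, 1, 1, 2 and 1 in the Ubx lines, 2 and 3 in the Abd-B lines, 2 with Hth and 1 with Gcm.

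Many sites of inv were bound with 1 Hox protein and not the others. A site 4848 bp upstream of the start was bound in all 12 lines, and one of 755 bp over the start in 9 lines, among them lines with Dfd, Ubx and Abd-B. Next came 4 intronic sites, centred 7654, 10322, 11638 and 19142 bp from the start, that were bound in 2 to 4 Dfd lines and in no other line. Beyond them 3 intronic sites, at 24815, 25339 and 28350 bp, were bound by Abd-B alone, and 2 sites at the end of the gene were bound in both Abd-B lines and no others. A coding-exon site between these was bound in the Gcm line alone. Thus at q 1e-2 none of the Ubx lines bound any of the 4 Dfd sites or the 5 Abd-B sites. At q 1e-10 few regions remained at inv: 2, 2, 1 and 0 in the Dfd lines, 0, 0, 0 and 2 in the Ubx lines, and 1 and 0 in the Abd-B lines. The split by Hox protein was therefore described at q 1e-2 alone.

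Of the remaining segmentation genes, cad, a determinant of the posterior embryo and a homologue of the vertebrate Cdx genes, had 3, 2, 2 and 2 regions in the Dfd lines, 2, 1, 3 and 2 in the Ubx lines, 5 and 3 in the Abd-B lines, and 3 each with Hth and Gcm. The pair-rule gene eve had 1 site, bound in Ubx, Ubx+Gcm, Hth and Gcm. The segment polarity gene gsb had 1 region in every line but Gcm, whereas its neighbour gsb-n, 9632 bp away, had 1 in Dfd+Hth+Gcm, 1 in Hth and 2 in Gcm. The pair-rule gene prd (chr2L:12082995-12085827) had no region in any of the 12 lists.

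The group listed under mesoderm and muscle had 4 to 9 of its 9 genes bound per line. Each gene was given 1 role, so a gene with several roles counted in 1 group. Over the lines 84.3% of their gene and line pairs were filled, the highest share of the 5 role groups. The median line had 70.2% of all protein-coding genes bound. It had 82.1% bound among the genes similar in length to the listed homeobox genes of every role group. The latter share was not matched to the lengths of these 9 genes, so their 84.3% stands without correction for length. The cardiac and visceral mesoderm gene tin had 2, 1, 2 and 2 regions in the Dfd lines, 1, 1, 4 and 1 in the Ubx lines, 5 in both Abd-B lines, and 2 each with Hth and Gcm. The visceral mesoderm gene bap, 6909 bp from tin, had 1 region in each of Dfd, Ubx+Gcm, Abd-B and Abd-B+Hth and none elsewhere. They were the one neighbouring pair on the list to share a site (1). The muscle identity gene lbl had 4, 6, 1 and 4 in the Dfd lines, 1, 1, 2 and 2 in the Ubx lines, 3 in both Abd-B lines, 2 with Hth and 1 with Gcm, and Six4, which acts in muscle and gonad, had 2, 2, 3 and 3, then 1, 2, 2 and 3, then 2 and 2, with 2 for Hth and 3 for Gcm. The counts of lbl were highest in Dfd, Dfd+Hth and Dfd+Hth+Gcm. Of the other genes listed in this group, lbe and H2.0 were bound in 11 lines and C15 in 9.

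The muscle identity gene slou had 3 regions in each of the 4 Dfd lines, 0, 0, 1 and 1 in the Ubx lines, 1 and 0 in the Abd-B lines, 0 with Hth and 4 with Gcm. It was 1 of 4 genes, with inv, al and C15, that held a site bound in all 4 Dfd lines and in no other line. There were 5 such sites (2.34%, interval 0.763 to 5.37%) against 0.864% of all sites. Sites bound in any number of Dfd lines and in no other line made up 33 of those at the homeobox genes (15.4%, interval 10.9 to 21.0%), against 8.72% of all sites, while those of the Ubx lines alone were 3 (1.40%, against 1.22%). These patterns were chosen after the sites were seen.

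A comparison of the Hox proteins without a cofactor drew largely on the same sites, so it is no separate evidence of a lean towards Dfd. Of the sites at homeobox genes 24 (11.2%, interval 7.32 to 16.2%) were bound by Dfd and neither Ubx nor Abd-B, where 6.52% of all sites were. At q 1e-10 these were 11 of 145 (7.59%, interval 3.85 to 13.2%, against 5.10%), so that the interval then covered the share of all sites. By contrast 16 sites (7.48%, interval 4.33 to 11.9%) were bound by Dfd and Abd-B without Ubx, against 13.0%. Abd-B alone of the 3 bound 45 (21.0%, against 23.1%), Ubx alone 2 (0.935%, against 0.249%), and all of them together 38 (17.8%, against 16.0%).

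The nervous system genes made up the largest role group, with 7 to 19 of 19 bound per line and 75.9% of gene and line pairs filled. All protein-coding genes were bound at 40.7% to 82.0% over the lines, with a median of 70.2%. The POU genes nub and pdm2, which act in neuroblast timing and, for nub, in the wing, lie 29029 bp apart. At nub there were 2 regions in each of the 4 Dfd lines, 2, 2, 2 and 3 in the Ubx lines, 4 and 2 in the Abd-B lines, and 2 each with Hth and Gcm, with 2 merged sites that reached over starts and had regions of all 12 lines. At pdm2 the counts were 1, 1, 1 and 0, then 0, 0, 1 and 1, then 1 and 1, with 1 for Hth and 3 for Gcm. The columnar gene Dr had 1, 2, 2 and 3 regions in the Dfd lines, 1 in each Ubx line, 2 in both Abd-B lines, 1 with Hth and 2 with Gcm, and a site of 680 bp at its start had regions of all 12 lines. By contrast the columnar gene ind had 1 region each in Ubx+Gcm, Abd-B and Abd-B+Hth.

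The LIM gene Lim3 of motor neuron identity had 8 sites, with 1, 2, 0 and 0 regions in the Dfd lines, 0, 0, 2 and 1 in the Ubx lines, 1 and 2 in the Abd-B lines, 1 with Hth and 5 with Gcm. Its relatives Lim1 and tup were bound in all 12 lines, with 1 to 3 regions in each. The optic lobe genes bsh and Vsx1 had 1 to 3 and 0 to 2 regions per line, bsh in all 12 lines and Vsx1 in 8. Of the remaining genes of this group, Hmx and unpg were bound in 11 lines, onecut in 10, vvl in 8, otp in 7, exex in 6, vnd in 5 and scro in 3. The 5 limb and appendage genes were the least often bound role group, at 51.7% of gene and line pairs, again without correction for length. The median line had 70.2% of all protein-coding genes bound. Among them al, a gene of the limb tips, was bound in 6 lines and the Bar genes B-H1 and B-H2 in 3 and 2. The LIM gene Awh had 0, 1, 1 and 1 regions in the Dfd lines, 0, 0, 1 and 1 in the Ubx lines, 3 and 2 in the Abd-B lines, 0 with Hth and 2 with Gcm.

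With Hth added to a Hox protein alone, fewer regions at these genes were bound only with Hth than were lost. The whole lists went the same way for Ubx and Abd-B. For Dfd they went the other way, with 2134 regions bound only with Hth and 1995 lost. Of 76 regions in Dfd+Hth 15 (19.7%, interval 11.5 to 30.5%) had no overlap with Dfd, as had 21.6% of the whole list, while 19 of 82 Dfd regions (23.2%, interval 14.6 to 33.8%, list 19.2%) had none in Dfd+Hth. The 15 lay at 14 genes (27.5% of the 51, 31.0% of genes of similar length and 20.8% of all protein-coding genes). For Ubx, 8 of 34 regions (23.5%, interval 10.7 to 41.2%, list 32.8%) were bound only with Hth, at 5 genes (9.80%, against 27.0% of genes of similar length and 16.9% of all), and 20 of 46 Ubx regions (43.5%, interval 28.9 to 58.9%, list 36.9%) were lost. For Abd-B the figures were 14 of 99 (14.1%, interval 7.95 to 22.6%, list 15%) at 12 genes (23.5%, against 37.2% and 26.9%), with 23 of 104 (22.1%, interval 14.6 to 31.3%, list 17.9%) lost.

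The genes concerned differed between the Hox proteins. Dfd+Hth gave 2 such regions at lbl, and ap, Awh and 11 other genes had 1 each, so that Awh, B-H2 and oc were bound with Hth and not without it, whereas otp, bap, Ptx1, Rx and Vsx1 were bound without it alone. With Ubx+Hth, ap, zfh1 and ro had 2 each, no gene was newly bound, and eve, otp, lbe, C15, unpg, toe, H2.0, Hmx and Vsx1 lost their regions. With Abd-B+Hth, ap and toy had 2 each, al was newly bound, and slou and Optix lost theirs. The regions bound only with Hth were narrower than those bound in both lines, with medians of 392 against 549 bp for Dfd, 465.5 against 489.5 bp for Ubx and 423 against 658 bp for Abd-B. Regions of Hth alone overlapped 3 of the 15 (20%, list 29.6%), 6 of the 8 (75%, list 68.1%) and 2 of the 14 (14.3%, list 12%). They overlapped a larger share of the regions bound in both lines: 40 of 61 (65.6%) for Dfd, 26 of 26 (100%) for Ubx and 52 of 85 (61.2%) for Abd-B.

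At q 1e-10 the widest region bound only with Hth lay at a different gene for each Hox protein. For Dfd+Hth it was 749 bp downstream of Dr (chr3R:29565541-29566289), a site that Dfd did not bind at q 1e-2 either and where Hth alone had no region. For Ubx+Hth it was 671 bp in a zfh1 intron and for Abd-B+Hth 987 bp in an lbl intron, and both of these were bound without Hth at q 1e-2. The presence of these regions in one list and absence from the other therefore depended on the threshold at zfh1 and lbl.

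The octamers were more frequent near the centre of regions bound only with Hth than of regions bound in both lines. They stood in the central 200 bp of 5 of 15 such regions with Dfd (33.3%, interval 11.8 to 61.6%) and of 1 of 61 regions bound with and without Hth (1.64%). For Ubx they stood in 2 of 8 (25.0%) against 0 of 26, and for Abd-B in 2 of 14 (14.3%) against 3 of 85 (3.53%). The whole lists had 30.1% against 7.81% for Dfd, 19.9% against 6.15% for Ubx and 17.8% against 7.14% for Abd-B, the same direction each time. Searched over the whole region, the contrast was smaller. It was then 5 of 15 (33.3%) against 14 of 61 (23.0%) for Dfd, 3 of 8 (37.5%) against 3 of 26 (11.5%) for Ubx and 4 of 14 (28.6%) against 16 of 85 (18.8%) for Abd-B. A match is a description of the sequence and no test of binding.

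The wing selector gene ap (FBgn0267978, chr2R:5706202-5727525) held the clearest site bound only where Hth was expressed with a Hox protein. An intronic site of 668 bp (chr2R:5709744-5710411), centred 786 bp from a start, was bound in all 5 lines with a Hox protein and Hth and in none of the 5 with a Hox protein without Hth, nor in Hth or Gcm alone. It held no octamer. At q 1e-10 it was bound in 4 of the 5 lines, all but Dfd+Hth. It was the 1 such site at the homeobox genes, and 27 of 23270 sites (0.116%) had this pattern, which was picked out after the sites were seen.

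Over the whole gene, ap had 2, 2, 1 and 4 regions in the Dfd lines, 2, 3, 3 and 5 in the Ubx lines, 2 and 4 in the Abd-B lines, 2 with Hth and 4 with Gcm, merged into 7 sites. A second intronic site of 861 bp was bound in Ubx+Hth, Ubx+Hth+Gcm, Abd-B+Hth and Gcm, and held TGATTTAT and TGATTGAT. A downstream site of 1066 bp was bound in 11 lines, all but Gcm, and lay nearer to another gene. Sites bound in 2 or more lines with Hth and in no Hox line without it numbered 7 (3.27%, against 4.19% of all sites), at ap (2), Awh, slou, oc, zfh1 and onecut. The reverse pattern numbered 6 (2.80%, against 1.78%). At q 1e-10 the sites with Hth at Awh, slou, oc and onecut had no region of any line. The zfh1 site then had regions of Dfd+Hth and Dfd+Hth+Gcm alone, and the ap site of 861 bp of Ubx+Hth+Gcm and Gcm alone.

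**Figure D5:**
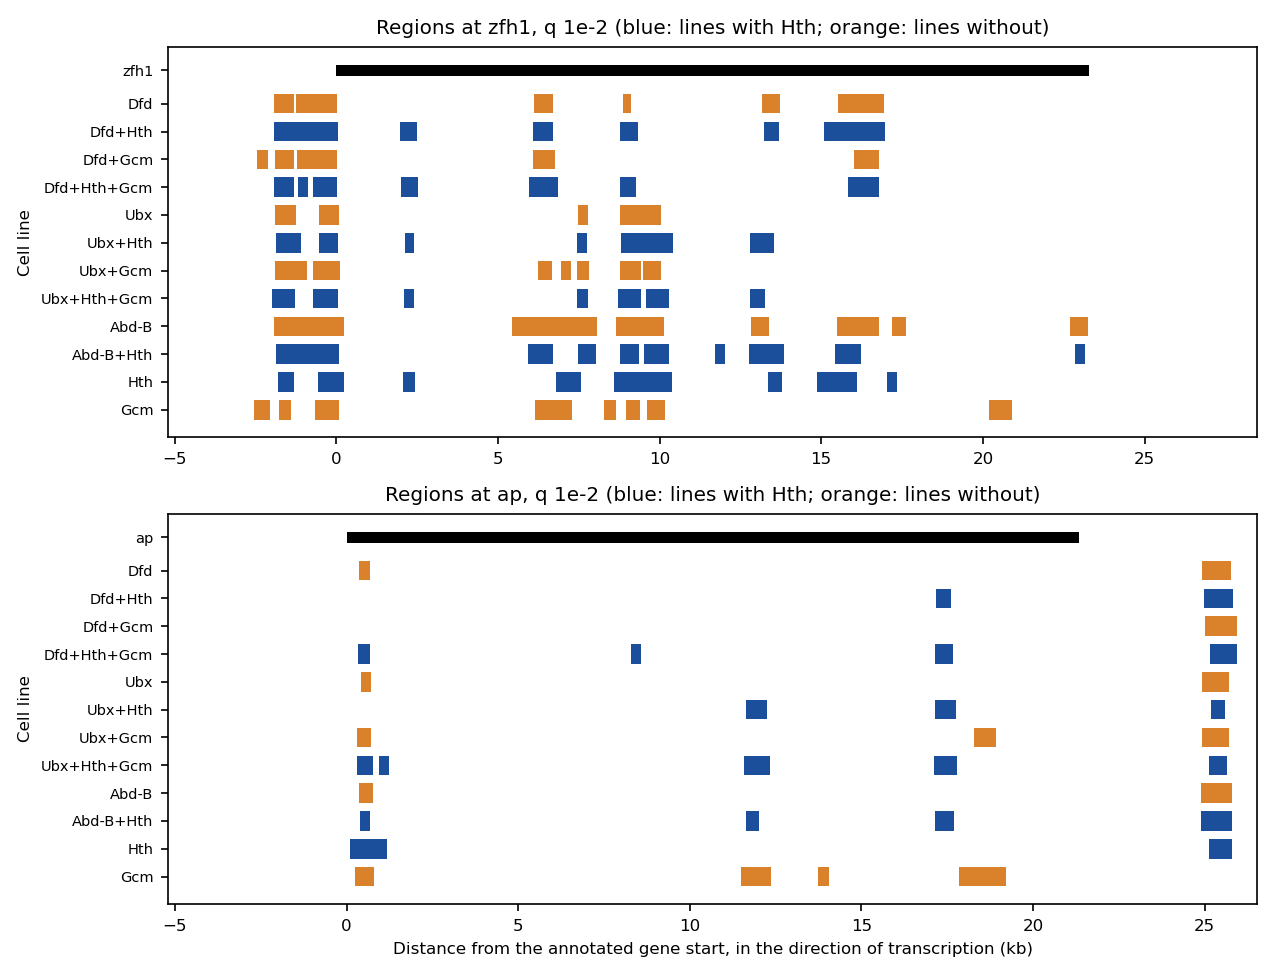
Regions at q 1e-2 along zfh1 and ap for the 12 lines, by distance in kb from the start of the gene. Bars in lines with Hth are blue and those in lines without it orange; the stretch at the zfh1 start is filled in all 12 lines, its intronic stretch is filled at different places in different lines, and ap has an intronic site of 668 bp in the 5 lines with a Hox protein and Hth.

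The number of bound homeobox genes was higher with Gcm for Ubx (40 against 30) and lower for Dfd (33 against 38), a difference between the Hox proteins that could not be tested with 1 list per line. For Ubx, 38 of 83 regions (45.8%, interval 34.8 to 57.1%) were bound only with Gcm, as were 48.4% of the whole list, and 1 of 46 Ubx regions (2.17%, list 7.09%) was lost. They lay at 25 genes (49.0%, against 63.1% of genes of similar length and 52.7% of all protein-coding genes). Newly bound were 11 genes, Awh, bap, slou, vnd, pdm2, Ptx1, so, Lim3, toy, onecut and ind, and C15 alone lost its region. For Dfd, 9 of 63 regions (14.3%, interval 6.75 to 25.4%, list 13.1%) were bound only with Gcm, at 9 genes (17.6%, against 23.9% and 16.7%).

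With Dfd+Gcm, Awh and oc were newly bound, while en, otp, bap, Ptx1, Rx, Lim3 and Vsx1 lost their regions, and 29 of 82 Dfd regions (35.4%, interval 25.1 to 46.7%, list 25.2%) had no counterpart. The share of all protein-coding genes bound was likewise higher with Gcm for Ubx (71.7% against 52.3%) and lower for Dfd (69.8% against 72.9%). The lists moved the same way, from 5278 to 8827 regions for Ubx and from 10374 to 8886 for Dfd, and their part in these counts was not tested. The genes with the most regions bound only with Gcm were ro (4), tin (3) and ey (3) for Ubx, and for Dfd no gene had more than 1, the widest being 401 bp at Awh, 397 bp at unc-4 and 389 bp at onecut. Of the 38 Ubx+Gcm regions 23 (60.5%, interval 43.4 to 76.0%) overlapped a region of Gcm alone, against 50.4% over the list. Of the 9 Dfd+Gcm regions 5 did (55.6%, list 55.5%). Among regions bound with and without Gcm the overlap with Gcm alone was higher for Ubx, 32 of 45 (71.1%), and slightly lower for Dfd, 28 of 54 (51.9%).

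The Gcm site was found in few of these regions. In the central 200 bp it stood in 2 of 38 regions bound only with Gcm for Ubx (5.26%) and in 0 of 45 bound with and without it, where the lists had 7.95% and 0.901%. For Dfd it stood in 0 of 9 and 0 of 54, where the lists had 16.1% and 1.35%. Since the search covered the central 200 bp alone, the match in the Dfd+Gcm and Ubx+Gcm regions at unc-4 printed above was not counted there. Over whole regions it stood in 4 of 38 (10.5%) against 4 of 45 (8.89%) for Ubx and in 1 of 9 (11.1%) against 4 of 54 (7.41%) for Dfd. With Gcm added to Dfd+Hth it was more frequent, in the central 200 bp of 3 of 14 regions bound only with Gcm (21.4%) and of 1 of 59 bound with and without it (1.69%). At q 1e-10 the widest region bound only with Gcm was 570 bp upstream of onecut for Dfd and 929 bp downstream of Six4 for Ubx, and the Hox protein without Gcm bound both at q 1e-2.

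With both cofactors present, Ubx again had many regions bound only with Gcm. Adding Gcm to Ubx+Hth gave 35 of 68 regions (51.5%, interval 39.0 to 63.8%, list 50%) at 26 genes (51.0%, against 62.1% of genes of similar length and 49.3% of all protein-coding genes), with 14 genes newly bound, and 0 of 34 Ubx+Hth regions were lost (interval 0 to 10.3%, list 11.5%). The genes with the most of these regions were zfh2 (4), ro (4) and ap. Adding Hth to Ubx+Gcm gave 10 of 68 (14.7%, interval 7.28 to 25.4%, list 21.0%) at 7 genes (13.7%, against 29.3% and 18.6%), led by ap and zfh1 (2), and 25 of 83 regions (30.1%, list 27.3%) were lost.

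Adding Gcm to Dfd+Hth gave 14 of 73 regions (19.2%, interval 10.9 to 30.1%), where the whole list had 9.83%. They lay at 10 genes (19.6%, against 15.3% of genes of similar length and 10.4% of all protein-coding genes), with 4 of the 14 at toy, and gsb-n, B-H1 and Ptx1 were newly bound. Of the 9 comparisons with and without a cofactor it was the one in which the interval at the homeobox genes lay above the list's share, and 21 of 76 Dfd+Hth regions (27.6%, list 23.5%) were lost. With the Dfd+Hth+Gcm list at q 1e-10 and the Dfd+Hth list at q 1e-2 the share was 9.09%. Adding Hth to Dfd+Gcm gave 24 of 73 (32.9%, interval 22.3 to 44.9%, list 27.0%) at 15 genes (29.4%, against 31.2% and 20.4%), led by ap, lbl (3) and toy (3), and 14 of 63 regions (22.2%, list 26.4%) were lost, fewer than were gained.

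Sites at the homeobox genes lay in introns in 33.5% of the pairs of site and gene, upstream in 33.0%, downstream in 20.0%, in coding exons in 8.84%, and in 5' and 3' UTRs in 2.33% each. At genes of similar length the shares were 28.0%, 29.7%, 28.0%, 5.83%, 4.84% and 3.62%. A transcript start was covered by 36 sites (16.7%, against 14.8%). By chromosome arm, 9 of the genes lay on 2L with 40 sites, 12 on 2R with 39, 8 on 3L with 27, 11 on 3R with 54 and 7 on X with 26. The 4 genes on chromosome 4, ey, toy, zfh2 and onecut, had 29 sites between them. Sites of one gene share its chromatin and are not replicates of a line.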

How the data were processed

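ChIP-Seq was measured in 12 lines with 24 ChIP and 12 input libraries. Per the labels and the study's methods, the authors mapped reads to dm6 with Bowtie 1.2.2, used MACS2 2.1.1.20160309 for peaks of each replicate over its input (q 1e-2, q 1e-10), kept the merged regions found in both replicates and removed regions at exons present on the plasmids. The deposited values used are start and end positions in bases, with no counts, signal or replicate values. The list of Hth was identical in the 3 tables holding it. No column of per-sample values was left unmapped (0).

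Genes came from Ensembl release 115 on Release 6. No region lay beyond a chromosome end. Lines were grouped by the construct in their labels. Overlap was 1 bp, regions at members lay within 5 kb, and genes of similar length were the 200 nearest in length to each member, without homeobox and Hox genes. The gene hth was left out of the lists. Motifs were counted in the central 200 bp. Shares have 95% exact binomial intervals, and no test was run. The genes and lists were chosen with earlier results of these data known.

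Values in each line are given for genes bound in all 12 lines at q 1e-10 or in none at q 1e-2, for the 5 genes with the most sites and those tied with them, for neighbours sharing a site, and for the 3 genes with the most cofactor-only regions per comparison. Sequence is shown, outside 1 arm, around the matches of the region holding the most. Alternatives were q 1e-10, mixed thresholds, 50% overlap, gene body alone, 2 or 10 kb windows, 10 length classes and all protein-coding genes. Added after the data were seen were other definitions of a start, whole regions for motifs and the nearest gene. Python 3.11.15, numpy 2.4.6, scipy 1.17.1 and matplotlib 3.10.9 were used, and interval and overlap code was checked on simulated data.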

Additional observations from a re-analysis of the deposited data

Results flagged for a closer look

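The number of homeobox genes with a region at q 1e-2 moved in opposite directions with Gcm in lines with Ubx and lines with Dfd. With Ubx it was higher by 10 genes, and with Ubx and Hth by 14. With Dfd it dropped by 5 genes, and with Dfd and Hth it dropped by 3. All protein-coding genes moved the same way, from 52.3% to 71.7% bound with Ubx, from 40.7% to 64.6% with Ubx and Hth, from 72.9% to 69.8% with Dfd and from 70.6% to 64.8% with Dfd and Hth. Each number is the difference between 2 lists, and the difference between the Hox proteins was not tested.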

How the results depend on the processing

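Of 188 alternative values 134 were labelled the same and 54 moved. A share was the same when it lay within the interval of its main value, and a count when it lay within a set fold change of it. A count labelled the same could still fall, as from 36 to 24 bound genes for Dfd+Hth at q 1e-10. The lower share at homeobox genes than at genes of similar length (11 of 12 lines, median 9.18 points) turned round in 2 of these settings. At q 1e-10 the bound genes were 25 for Dfd, 20 for Dfd+Gcm, 17 for Dfd+Hth+Gcm, 14 for Ubx, 8 for Ubx+Hth, 25 for Ubx+Gcm and 20 for Ubx+Hth+Gcm. In the gene body alone they were 17, 20, 16 and 15 in the Dfd lines, 12, 7, 26 and 17 in the Ubx lines and 27 for Abd-B, and by nearest gene 13 for Ubx+Hth. The median share of genes of similar length, 82.1%, became 70.2% with all protein-coding genes, 59.8% at q 1e-10, 61.6% in gene bodies, 88.8% within 10 kb and 54.0% by nearest gene. Homeobox genes were below it in 3 lines with all protein-coding genes (median 2.44 points above) and in 2 by nearest gene (2.39 points above). For starts, they were above in 2 lines at q 1e-10. Merged sites fell to 136 in gene bodies. With the cofactor list at q 1e-10 and the other at q 1e-2, the share bound only with the cofactor was 9.76% for Dfd+Hth, 3.03% for Abd-B+Hth, 0% for Dfd+Gcm, 14.3% for Ubx+Gcm, 9.09% for Dfd+Hth+Gcm against Dfd+Hth, and for Ubx+Hth+Gcm 26.5% against Ubx+Hth and 5.88% against Ubx+Gcm. With both at q 1e-10 it was 41.7% for Ubx+Hth and, for Ubx+Hth+Gcm, 70.6% and 26.5%. In gene bodies Dfd+Hth+Gcm against Dfd+Gcm gave 50%. The causes of these moves were not tested. Leaving out each replicate was not run, because replicates were merged before deposit. The part of library depth in the counts was not tested. No paired analysis was possible because both replicates of a line were merged and lines share no library numbers.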
